A study of Mus musculus with 2 samples.

Results

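The collagen and laminin genes of the mouse were examined for chromatin accessibility in reporter-sorted neural progenitors. The members were all protein-coding genes whose symbols are Col, a number, the letter a and a number, or Lama, Lamb or Lamc and a number. There were 55 of them among 21938 protein-coding genes, 44 for collagen chains and 11 for laminin chains. The rule used gene names and no measured value. Live cells sorted for the red fluorescent protein mKate2 were assayed by ATAC-seq, in which the transposase Tn5 inserts adapters into open chromatin. The cells (NPs in the labels) were derived from the mouse embryonic stem line Olig2-mKate2, in which the fluorescent protein is expressed with Olig2, a transcription factor of motor neuron progenitors. They were taken at day 5 of a differentiation under 100 nM retinoic acid (RA) and 100 nM SAG, which activates Sonic hedgehog signalling. Each of the 2 replicate libraries used 50000 cells, and both belonged to 1 group, so no comparison between conditions was possible. The sort was on the reporter alone, so per the study's methods the group is not a pure progenitor type and can hold early motor neurons and cells that also express NKX2.2. Neither the labels nor the study's methods state whether the replicates were separate cultures, so the spread between them may be technical.

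Collagens are assembled from 3 alpha chains wound into a triple helix, and each laminin is a cross-shaped trimer of 1 alpha, 1 beta and 1 gamma chain. Laminins and type IV collagen form the sheets of the basement membrane, which in the neural tube lies against the basal end-feet of the neuroepithelial progenitors. Fibrillar collagens build the fibres of connective tissue and cartilage. The other families link, anchor or decorate these networks. A promoter that is accessible is open to the transcription machinery, but accessibility is not a measure of transcript level.

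The promoters at which the results turned are shown first, each as the 200 bases before the annotated transcription start site (TSS), 5′ to 3′ on the strand of the gene, in mm10. Capitals mark promoter motifs found on either strand. One was the GC box, spelled GGGCGG, which the factor SP1 is known to bind. Another was the CCAAT box, matched by those letters alone. The last was the TATA box, matched as TATAAA at any distance from the start site. The first 2 belong to the most accessible promoters of the set. The last 2 belong to the main chains of the interstitial collagens I and III, whose start sites lay in no interval.
Lama1 (chr17:67697059-67697258, plus strand): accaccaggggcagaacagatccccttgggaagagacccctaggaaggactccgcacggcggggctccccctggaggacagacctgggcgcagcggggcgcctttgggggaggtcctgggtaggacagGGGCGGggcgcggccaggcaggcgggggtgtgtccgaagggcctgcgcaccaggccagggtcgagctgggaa
Col11a1 (chr3:114030340-114030539, plus strand): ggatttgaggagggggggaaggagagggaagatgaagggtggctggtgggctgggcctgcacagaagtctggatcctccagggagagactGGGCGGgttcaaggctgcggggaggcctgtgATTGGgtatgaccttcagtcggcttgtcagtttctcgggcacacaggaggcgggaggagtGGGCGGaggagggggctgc
Col1a1 (chr11:94936024-94936223, plus strand): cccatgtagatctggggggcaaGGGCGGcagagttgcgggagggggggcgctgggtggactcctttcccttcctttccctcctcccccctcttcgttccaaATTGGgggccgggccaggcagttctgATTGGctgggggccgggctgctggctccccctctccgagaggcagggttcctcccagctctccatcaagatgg
Col3a1 (chr1:45311338-45311537, plus strand): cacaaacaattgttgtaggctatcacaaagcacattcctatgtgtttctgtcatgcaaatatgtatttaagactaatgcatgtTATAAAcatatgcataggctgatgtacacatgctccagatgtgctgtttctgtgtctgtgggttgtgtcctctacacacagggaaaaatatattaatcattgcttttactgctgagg
The Lama1 stretch held 1 GC box and had a GC content of 72%. The Col11a1 stretch held 2 GC boxes beside 1 CCAAT box. The Col1a1 stretch had 1 GC box and 2 CCAAT boxes. The Col3a1 stretch was at 37.5% GC, had a TATA box and held no CpG.

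The libraries had 31876165 and 31672240 counts over 119502 intervals, the regions in which peaks had been called. The collagen and laminin genes accounted for 408 of these intervals. In replicate 1 they held 72502 counts, 0.227% of the library (95% Wilson interval 0.226 to 0.229%). In replicate 2 they held 72397 counts, or 0.229% (0.227 to 0.23%). These intervals cover counting error only. The lowest count of any of the 408 was 5. All 5 neural progenitor marker promoters (Olig2, Nkx6-1, Sox2, Pax6, Irx3) were accessible, with densities from 613 to 1452 normalised counts per kb. Of 4 motor neuron markers 3 were, up to 1087 at Isl1, and Chat had no interval at its start site. Such values cannot test the cell label, since 66.7% of all protein-coding genes had an interval at a start site. The median of all protein-coding genes was exceeded by all 5 neural progenitor and 2 of the 4 motor neuron markers. Of 7 fibroblast or mesenchymal markers only Pdgfra (860) exceeded it, and of 4 endothelial markers only Kdr (718). The rest of those lists are given below.

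Accessibility of a promoter was expressed as a density, the normalised counts per kb of the intervals that overlapped a protein-coding TSS of the gene (TSS intervals), and set to 0 where there was none. Of the 55 genes, 42 (76.4%) had a TSS interval, against 66.7% of all protein-coding genes. All 11 laminin genes had one, and 31 of 44 collagen genes did. Their levels were lower than those of most genes. The median density of the 55 genes was 216 in replicate 1 and 216.5 in replicate 2, and 221 ± 0.4 for the replicate means (SD, n = 2), against 487 ± 9.04 for all protein-coding genes. Collagens had a median of 175 ± 5.31 and laminins of 315 ± 26.9. Only 14 genes (25.5%) stood above the protein-coding median, 10 collagens and 4 laminins. Among genes with a TSS interval the medians were 283 for collagens and laminins and 853 for all genes. Accessible members ranged 30.6-fold, from 57.9 at Lamb3 to 1770 at Lama1.

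**Figure D1:**
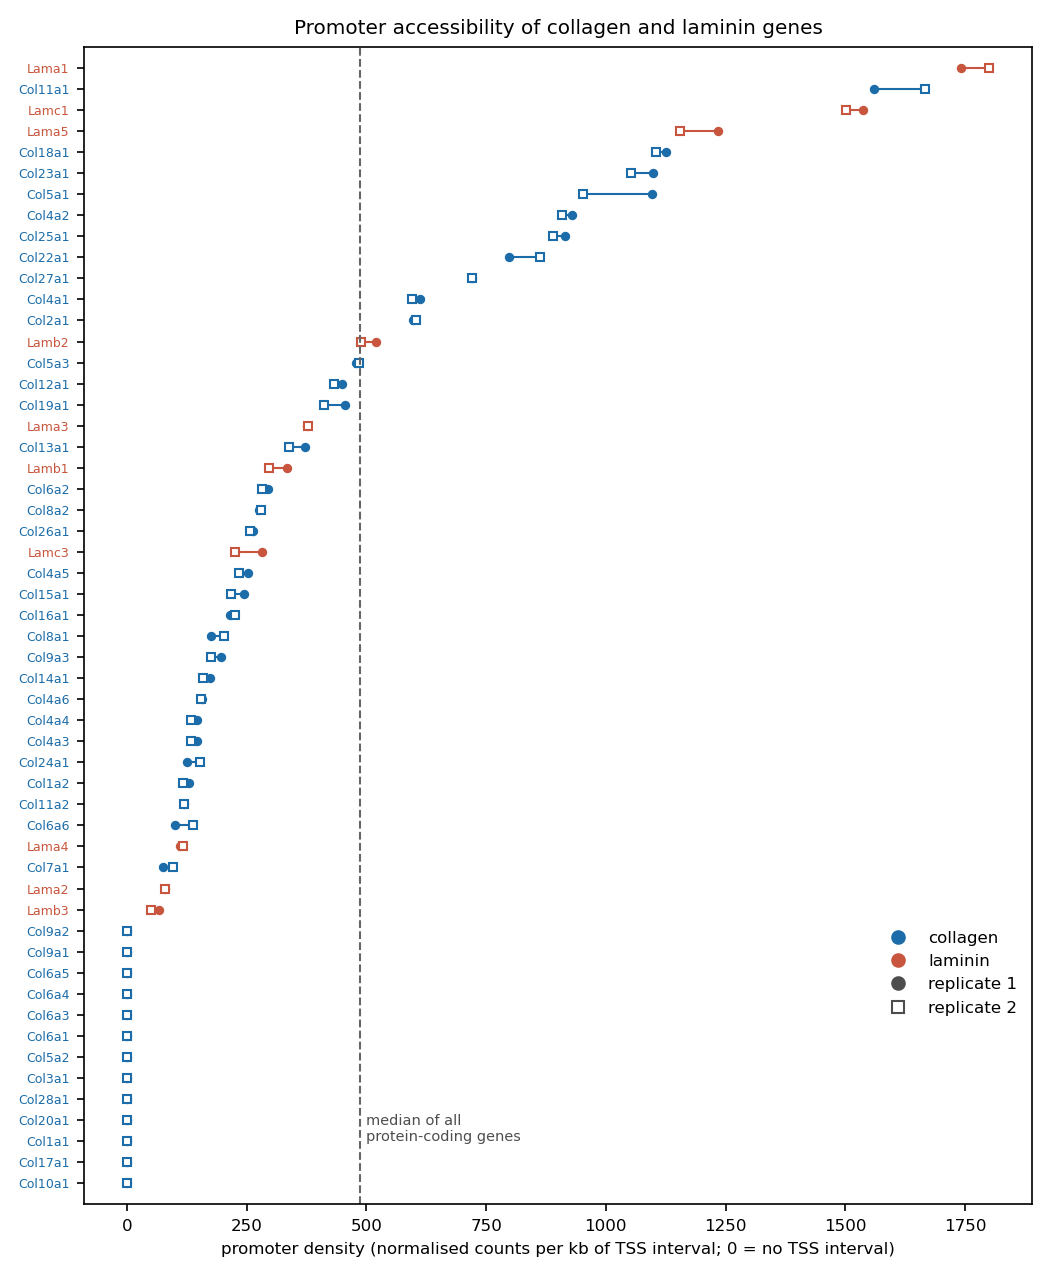
Promoter density of the collagen (blue) and laminin (red) genes in normalised counts per kb, with replicate 1 as filled circles and replicate 2 as open squares, and the median of all protein-coding genes as a dashed line. The order runs from Lama1 at 1770 down to 13 collagen genes at 0, and 14 genes have a mean above the dashed line at 487.

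The laminin alpha chains, which carry the cell-binding end of the trimer, covered nearly the whole range. Lama1, the alpha chain of the laminin found in early embryonic basement membranes, had 3544 and 3669 counts in its TSS interval, giving densities of 1741 and 1800 and a mean of 1770 ± 42.4 (SD, n = 2). This was the highest promoter of the set and stood at the 93.7th percentile of all protein-coding genes. Lama5, a broadly used alpha chain, followed with 1234 and 1154 (mean 1194 ± 56.6). Replicates of the 2 genes did not overlap. Lama3, a chain of epithelial anchoring laminins, reached 375 and 378. Lama4, found in vessel walls, had 111 and 117, from 37 and 39 counts. Lama2, the alpha chain of muscle and peripheral nerve laminin, had 79.9 and 78.5, from 60 and 59 counts. Lama1 was thus the most accessible of the 5 alpha chain promoters and Lama2 the least, with a gap far larger than the spread between replicates.

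Among the beta chains Lamb2 was the most accessible, with 521 and 490 normalised counts per kb (mean 505 ± 21.9). Lamb1, the beta chain that pairs with the alpha-1 chain in the early embryonic laminin, had 335 and 296 (mean 315 ± 26.9). Lamb3, an epithelial beta chain, was lowest at 65.7 and 50 (mean 57.9 ± 11.1), from 67 and 51 counts. Among the gamma chains Lamc1, the partner in most laminin trimers, had 1538 and 1501 (mean 1519 ± 26.4). Lamc3 had 282 and 226 (mean 254 ± 39.8), far below Lamc1 in both replicates. The 3 chains of the early embryonic laminin therefore had promoter densities of 1770, 315 and 1519 for alpha-1, beta-1 and gamma-1.

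The 6 type IV collagen genes lie in 3 head-to-head pairs, in which the members of a pair are transcribed away from each other. The pair that encodes the ubiquitous network, Col4a1 and Col4a2, shared a TSS interval at chr8:11312235-11314100 with 1732 and 1695 counts, at 929 and 908 normalised counts per kb (mean 918 ± 14.6). The annotated outer starts of the pair overlapped by 22 bases. Col4a1 had a second TSS interval, chr8:11278369-11279782, at an internal start site, with 187 ± 7.11, which took the density of the gene as a whole to 603 ± 11.3. Col4a3 and Col4a4, whose chains form the network of the kidney glomerulus, shared an interval at chr1:82586407-82587566 with 169 and 154 counts and a density of 139 ± 9.22. The starts of Col4a5 and Col4a6 on the X chromosome were 1309 bp apart and lay in separate intervals, with 252 and 234 at Col4a5 (mean 243 ± 12.4) and 157 and 154 at Col4a6 (mean 155 ± 2.02). The shared Col4a1 and Col4a2 promoter was thus above the other pairs in both replicates.

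Densities differed by chromosome over the whole table. The median TSS interval had 1129 ± 26.6 on chromosome 8, which was 1.41 times that of the other autosomes. On the X chromosome it had 483 ± 4.23, or 0.595 times. Relative to the median of their own chromosome, the densities were 0.813 ± 0.00644 for the interval of Col4a1 and Col4a2, 0.502 ± 0.0212 for Col4a5 and 0.321 ± 0.00128 for Col4a6. The part of these chromosome differences in the order of the pairs was not tested.

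The protein-coding starts of Col4a4 and Col4a3 were 127 bp apart, within their shared interval of 1160 bp. The 71 bases that lie outside both annotated genes, on the plus strand in mm10, held none of the motifs searched.
Col4a4 and Col4a3 (chr1:82586850-82586920, 71 bases): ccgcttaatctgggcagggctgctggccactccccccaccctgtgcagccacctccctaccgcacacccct

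The fibrillar collagens ranged from 0 to 1613 normalised counts per kb. Of 11 genes 8 had a TSS interval, against 66.7% of all protein-coding genes. The protein-coding median was exceeded by 4 of the 11, and the family median was 139 ± 16 normalised counts per kb. Col11a1, a chain of the minor fibrils that nucleate cartilage collagen, had 1560 and 1667 (mean 1613 ± 75.8) and was second of the whole set. Col5a1, which regulates fibril diameter, had 1096 and 951 (mean 1024 ± 102). Col27a1 had 720 ± 1.35. Col2a1, the main collagen of cartilage and a gene of the early notochord and floor plate, had 2203 and 2231 counts and 601 ± 5.02. Col5a3 was at the protein-coding median, with 478 against 492 in replicate 1 and 485 against 479 in replicate 2. The rest were low. Col24a1 had 139 ± 18.9, Col1a2 had 129 and 117 (mean 123 ± 8.76), and Col11a2 had 120 in one replicate and 119 in the other. Col1a1, Col3a1 and Col5a2 had no TSS interval.

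The lack of a TSS interval did not always mean a distance from accessible chromatin. For Col1a1, the first chain of the most abundant collagen of bone and skin, an interval began 618 bp downstream of the start site, with 603 and 544 counts and a density of 472 ± 34.6. An interval ended 13 bp from the Col5a2 start with 38 and 44 counts (134 ± 13.8). For Col3a1 the nearest interval was 1861 bp away and held 9 and 10 counts. Within the pair of chains that make collagen I, Col1a2 thus had an interval on its start and Col1a1 one beside it.

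Collagen VI, which forms beaded microfilaments, had the lowest family median. That median was 0 because 4 of its 6 genes had no TSS interval, which does not show closed chromatin. Of its 6 genes 2 had a TSS interval, against 66.7% of all protein-coding genes. Col6a2 had 295 and 282 (mean 288 ± 9.54), and Col6a6 had 99.4 and 138 (mean 119 ± 27.2) from 49 and 68 counts, the widest relative spread between replicates of any member. For Col6a1, Col6a3, Col6a4 and Col6a5 the nearest interval lay between 1976 and 10508 bp away. Col6a1 and Col6a2 encode partner chains of the same microfilament.

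The FACIT collagens sit on the surface of fibrils. Of 9 genes 6 had a TSS interval, about the share of all protein-coding genes (66.7%). The family median was 185 ± 14.8, and Col22a1 alone exceeded the protein-coding median (799 and 863, mean 831 ± 45.6). The 3 genes of collagen IX, which coats cartilage fibrils, were low. Col9a3 had 195 and 174, Col9a2 had none but an interval 146 bp into the gene at 247 ± 5.74, and Col9a1 had none within 5861 bp. Among the multiplexins, the collagens of basement membrane zones, Col18a1, the source of endostatin, had 1126 and 1105 (mean 1115 ± 14.6) and Col15a1 had 230 ± 19.3. The transmembrane collagens Col23a1 and Col25a1 had 1099 and 1052, and 914 and 889. The Col25a1 interval lay at the only start of a protein-coding transcript, which is well inside the annotated ends of the gene. Of the 2 TSS intervals of Col23a1, the one at the gene start had 1452 ± 39.9 and an internal one 82.5 ± 15. Each of the 10 highest promoters, from Lama1 to Col22a1, had a mean above 830 normalised counts per kb.

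The 13 genes without a TSS interval were all collagens. These were Col1a1, Col3a1, Col5a2, Col6a1, Col6a3, Col6a4, Col6a5, Col9a1, Col9a2, Col10a1, Col17a1, Col20a1 and Col28a1. For 5 of them, Col1a1, Col5a2, Col9a2, Col17a1 and Col20a1, an interval lay within 1 kb of a start site. Including intervals within 1 kb brought the count to 47 of 55 genes, against 70.8% of all protein-coding genes. At the other extreme, the nearest interval to Col10a1, a collagen of hypertrophic cartilage, was 28122 bp away.

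Sequence features that the choice of genes did not use differed between these groups. In the 300 bases around the main TSS (250 before, 50 after), the ratio of observed to expected CpG had a median of 0.549 for the 42 genes with a TSS interval and 0.189 for the 13 without. The medians over 21853 protein-coding genes with an annotated coding transcript were 0.738 with and 0.162 without. A GC box was found in 66.7% of the former members and 23.1% of the latter, against 63.1% and 9.12% of all genes with and without a TSS interval, and 45.3% of all promoters. A TATA box was found in 7.14% and 30.8% of the members, against 6.97% and 23.6% of all genes split in the same way, and 12.5% of all promoters. The E-box CANNTG, which is the class of site that OLIG2 and other basic helix-loop-helix factors recognise, was in 63.6% of the members' promoters and 69.1% of all. The GLI core GACCACCC was in 0% of the 55 promoters and in 0.769% of all. Both strands were searched for each motif, and none of these motifs contains another. Spearman's rho between CpG ratio and promoter density was 0.68 over the 55 genes and 0.72 over all protein-coding genes. These are descriptions over genes that share the same 2 libraries.

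All 17 members with a CpG ratio of at least 0.6, a limit chosen after the values were seen, had a TSS interval, as did 25 of the 38 below it. Of all protein-coding genes, 97.7% and 40.1% did. A density above the protein-coding median was found for 9 of the 17 and 5 of the 38. The same shares over all protein-coding genes were not computed, so this split has no baseline. The order was not strict. Col11a1, at a ratio of 0.332, and Lama1, at 0.521, were more accessible than Col25a1, at 0.936. For Col18a1, Col9a3 and Col11a2 the main TSS used for the sequence was another than the start in the interval.

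**Figure D2:**
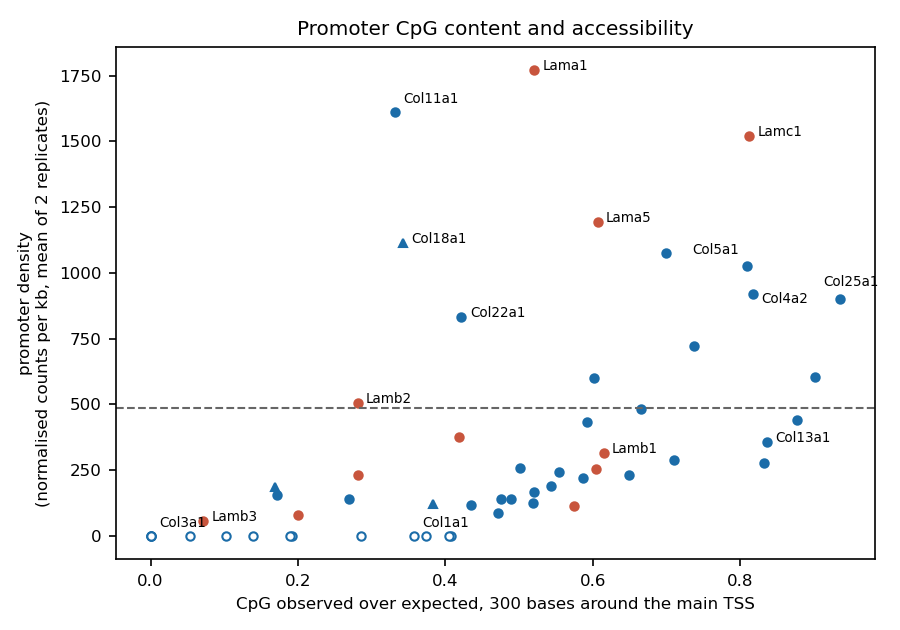
CpG observed over expected in the 300 bases around the main TSS (horizontal) against promoter density in normalised counts per kb (vertical, mean of 2 replicates) for the 55 genes, collagens in blue and laminins in red. Open symbols at 0 are the 13 genes without a TSS interval, triangles are the 3 genes whose main TSS is not the one in the interval, and the dashed line is the median of all protein-coding genes at 487; points rise to the right with Col11a1 and Lama1 well above their neighbours.

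Along the gene bodies, 366 intervals overlapped a member and no protein-coding TSS. Of these, 287 (78.4%) lay in introns, 70 in coding exons and 9 in UTR exons, and 53 lay in the first intron. These locations were not computed for the gene body intervals of other genes. Collagen and laminin genes are long, with a median of 114 kb against 17.4 kb for all protein-coding genes. Per length they held as many such intervals as other genes, 5.21 per 100 kb of gene against 5.25. Their densities had a median of 127 ± 0.644 normalised counts per kb, against 119 ± 2.15 for 54305 intervals in all protein-coding genes. A mean normalised count over 100 was reached by 96 (26.2%), against 30.2% of all gene body intervals. The 14 members with a promoter above the protein-coding median held 7.09 intervals per 100 kb and the other 41 held 4.38. The split by TSS interval went the other way, with 5.20 per 100 kb in the 42 members with one and 5.34 in the 13 without, and Spearman's rho between promoter density and intervals per 100 kb was 0.17 over the 55 genes. The median density of TSS intervals was 2.11 ± 0.0725 times that of gene body intervals for the members and 6.71 ± 0.267 times for all genes.

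The members with the most gene body intervals were Col18a1 with 27, Col25a1 with 22, Col4a2 with 19, Col4a1 with 17 and Lama3 with 14. The 27 intervals of Col18a1 held 4346 and 4552 counts, more than its promoter did. The 22 of Col25a1, a gene of 468 kb, held 1230 and 1308 counts, with a median density of 114. Lama2, the longest member at 640 kb, had 13. Col6a1, Col6a2, Col9a3, Col10a1, Lamb2 and Col4a5 had none, although Col4a5 is 214 kb long.

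The densest gene body interval was in the first intron of Col4a1, at chr8:11308387-11309494. It lay 3886 bp from the Col4a1 start, held 2848 and 2921 counts, and reached 2571 and 2635 normalised counts per kb (mean 2603 ± 45.1). This was 2.83 ± 0.094 times the interval at the shared promoter, and it ranked 26th of the 54305 gene body intervals of the table. Densities in this ranking were not adjusted for chromosome. The median TSS interval of chromosome 8, which carries Col4a1 and Col4a2, had 1.41 times the density of that of the other autosomes. Of the 10 densest, 3 more were in the type IV genes, namely intron 4 of Col4a2 (1012 ± 0.585), intron 3 of Col4a2 (715 ± 67.5) and intron 37 of Col4a4 (896 and 988, mean 942 ± 64.9). Col2a1 held a further 2, at introns 18 and 16, with 1236 ± 3.93 and 869 ± 13. These were the only gene body intervals of Col2a1, and that in intron 18 overlapped the start of a Col2a1 transcript not annotated as protein-coding. The remaining 4 were in intron 1 of Lama5 (817 ± 0.472, in an interval of 153 bp with 125 counts in each replicate), intron 45 of Col14a1 (746 ± 42.6) and introns of the longer transcripts of Col18a1 (657 ± 6.26 and 648 ± 15.1).

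**Figure D3:**
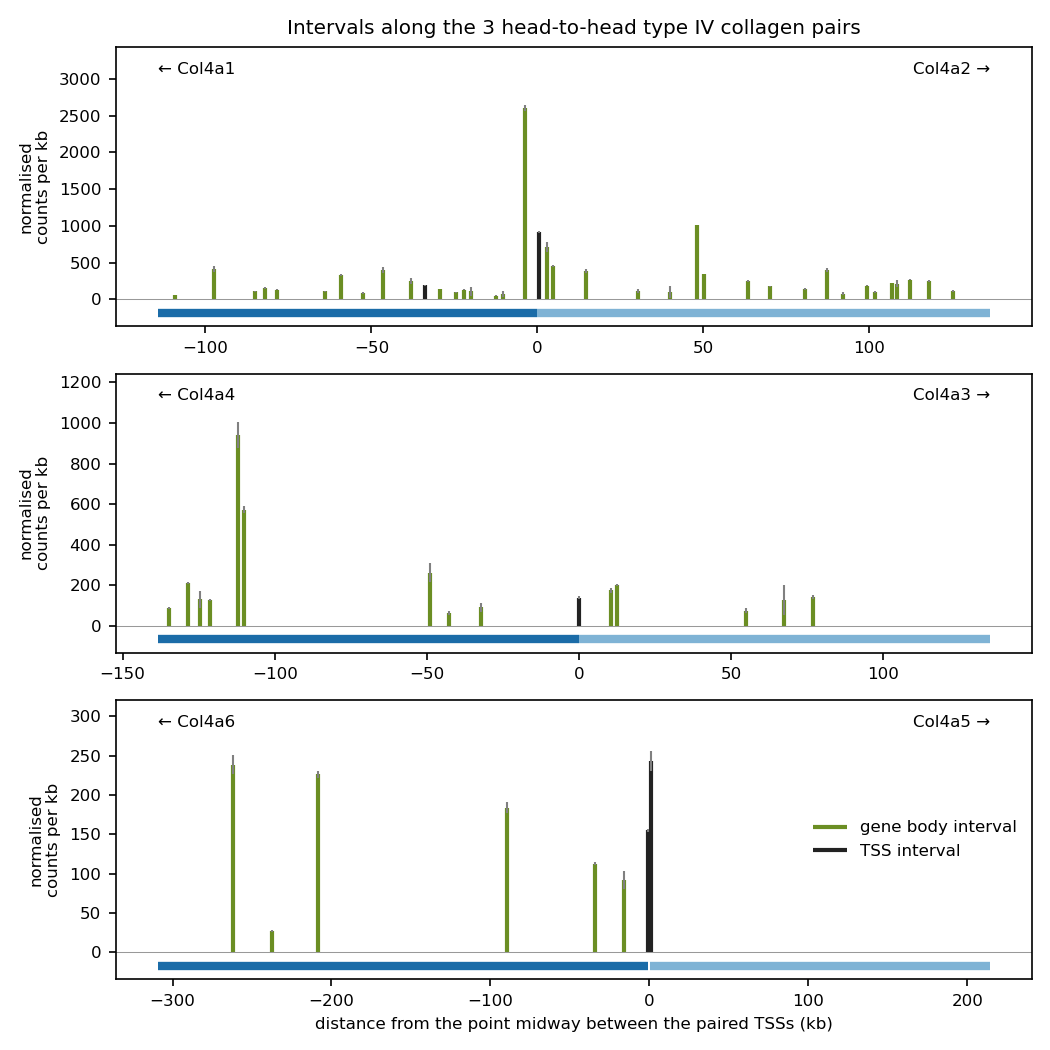
Density of each interval (normalised counts per kb, mean of 2 replicates, thin lines SD) along the 3 pairs of type IV collagen genes, by distance in kb from the point midway between the paired start sites. Black bars are TSS intervals, green bars are gene body intervals and the blue strips are the genes; the tallest bar, 2603 in the first intron of Col4a1, stands beside the shared promoter at 918, while the pair of Col4a6 and Col4a5 stays below 250 in every bar.

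All 10 exceeded the median TSS interval of the set (269 ± 7.9). The central 200 bases of 4 of them follow, namely the densest, the pair in Col2a1, and the one of the 10 whose centre held a GLI core, in Col18a1, which was the least dense of the 10. This choice was made after the values and sequences were seen. Capitals mark E-boxes (CANNTG) and the GLI core (GACCACCC), and each sequence is on the strand of its gene in mm10. None of the 4 stretches overlapped an annotated exon.
Col4a1 intron 1 (chr8:11308840-11309039, minus strand): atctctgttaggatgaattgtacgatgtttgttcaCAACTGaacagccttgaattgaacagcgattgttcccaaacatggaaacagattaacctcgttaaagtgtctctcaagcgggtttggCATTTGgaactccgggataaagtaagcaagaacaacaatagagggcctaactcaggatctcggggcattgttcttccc
Col2a1 intron 18 (chr15:97989921-97990120, minus strand): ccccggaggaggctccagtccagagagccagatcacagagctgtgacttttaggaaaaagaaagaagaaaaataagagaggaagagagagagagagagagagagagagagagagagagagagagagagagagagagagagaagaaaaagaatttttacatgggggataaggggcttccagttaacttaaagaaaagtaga
Col2a1 intron 16 (chr15:97992813-97993012, minus strand): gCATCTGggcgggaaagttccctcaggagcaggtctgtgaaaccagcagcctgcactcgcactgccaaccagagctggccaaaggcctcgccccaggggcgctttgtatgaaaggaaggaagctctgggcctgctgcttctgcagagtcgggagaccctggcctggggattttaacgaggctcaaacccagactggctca
Col18a1 (chr10:77122072-77122271, minus strand): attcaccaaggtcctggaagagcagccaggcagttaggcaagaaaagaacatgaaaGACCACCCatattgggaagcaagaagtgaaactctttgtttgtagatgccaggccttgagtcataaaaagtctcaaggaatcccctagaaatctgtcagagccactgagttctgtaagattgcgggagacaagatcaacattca
The Col4a1 stretch held 2 E-boxes and had a CpG ratio of 0.636, against a median of 0.193 over the 366 centres. The Col2a1 stretch of intron 18 held none of the motifs and is largely a simple repeat. The Col18a1 stretch held 1 of the 2 GLI cores found among the centres of the 366 intervals (0.546%, against 0.656% of all gene body intervals). An E-box was present in 69.4% of the centres and in 70.1% of all.

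In 28 of the 49 genes with a gene body interval (57.1%) the densest such interval exceeded the promoter, against 35.2% of all protein-coding genes with one. Both shares include genes without a TSS interval, whose promoter density was set to 0, so any gene body interval exceeds it by definition. Among genes with both kinds of interval the densest gene body interval exceeded the promoter in 17 of 38 members (44.7%) and in 19.8% of 9371 genes. The ratio was 4.32 ± 0.156 for Col4a1, 2.06 ± 0.0243 for Col2a1, 6.77 ± 0.915 for Col4a4 and 4.69 ± 1.05 for Col6a6. For Lama1 it was 0.302 ± 0.0158 and for Col25a1 0.38 ± 0.0328. The Col4a1 ratio used the density of the whole gene, 603, which includes its internal TSS interval. The Col2a1 ratio depends on interval length. Its TSS interval, the longest of the set at 3691 bp, held 2203 and 2231 counts, more than the 1361 and 1356 of the intron 18 interval. Members were longer than other genes, as given above, and the part of gene length in these shares was not tested.

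**Figure D4:**
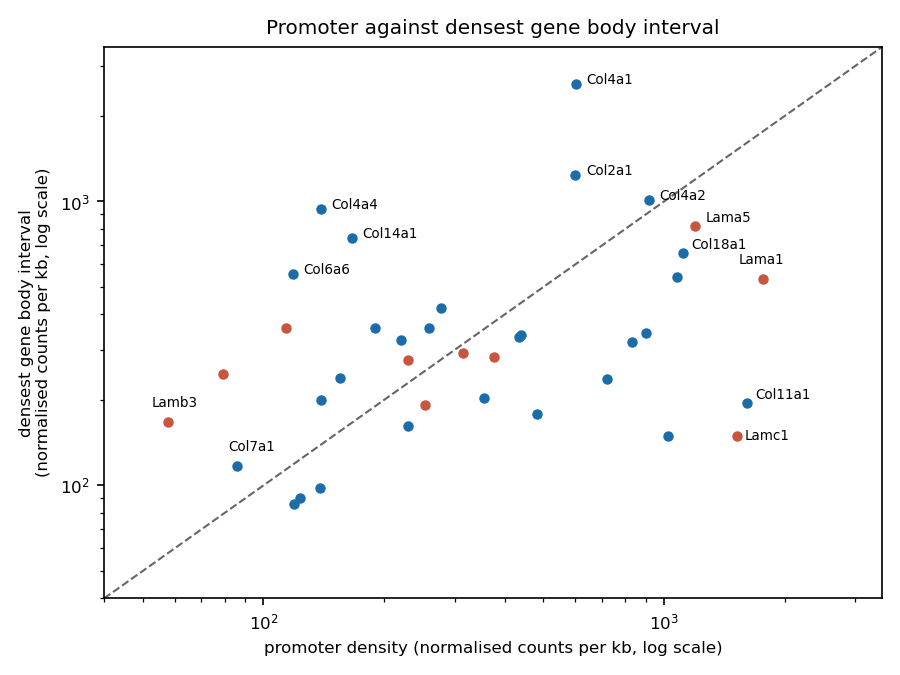
Promoter density (horizontal) against the density of the densest gene body interval (vertical) for the 38 genes that have both, each in normalised counts per kb on a log scale, as means of 2 replicates, with collagens in blue and laminins in red. The dashed line marks equality; 17 genes lie above it, Col4a1 farthest up at 2603, and Lama1, Col11a1 and Lamc1 lie far below it.

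Genes that act with these proteins were examined as fixed lists, beside a share of 66.7% of all protein-coding genes with a TSS interval. Of 6 other basement membrane components all had a TSS interval and 5 exceeded the protein-coding median, with a list median of 914 ± 28.1. Agrin (Agrn) had 1142 and Nid2, a nidogen that links laminin to collagen IV, had 1031, whereas Nid1 had 242. Of 20 genes of collagen synthesis and processing 19 had a TSS interval and 13 exceeded the median, with a list median of 827 ± 27.8. These included P4hb at 2612, a subunit of the enzyme that hydroxylates collagen proline, and the collagen chaperone gene Serpinh1 at 811. Loxl2, a crosslinking enzyme, had none. Of 14 laminin and collagen receptors 12 had one and 7 exceeded the median (list median 529 ± 12.3). Itgb1, the shared beta subunit of the laminin and collagen integrins, had 2430 and the laminin receptor Dag1 had 1812. Ddr2, a receptor of fibrillar collagen, and Gp6, a platelet receptor, had none.

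Markers of other cells that make these matrices were also read. Of 7 fibroblast or mesenchymal markers 5 had a TSS interval, with a summary range from 0 at Postn and Lum to 860 at Pdgfra and a median of 291. Of 4 endothelial markers Kdr (718) and Tek (83.1) had one, and Cdh5 and Pecam1 were at 0. All 4 extra-embryonic endoderm markers had one, from 326 to 458. For comparison, 66.7% of all protein-coding genes had a TSS interval. Above the protein-coding median stood 1 of the 7 fibroblast or mesenchymal, 1 of the 4 endothelial and 0 of the 4 extra-embryonic endoderm markers. In bulk cells a small share of open cells cannot be told apart from a weak opening in all of them, and the part of such cells in the collagen and laminin values was not tested.

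Between the libraries, the two-sided exact binomial test with Benjamini-Hochberg adjustment over the whole table called 0 of the 408 intervals different at 0.01, with 0% called among all 119502. An unadjusted p under 0.05 was found for 34 of the 408 (8.33%), against 8.39% of all intervals. The smallest adjusted p was 0.0593, at the Col5a1 promoter with 1951 and 1695 counts (log2 ratio of replicate 2 to 1, -0.20). Of the 408, 133 averaged over 100 normalised counts, and the SD of their log2 ratio was 0.16, against 0.14 for intervals of this abundance in the whole table. The largest difference of these was in a gene body interval of Col20a1, chr2:180987217-180988746, with 89 and 121 counts (log2 ratio 0.44, adjusted p = 0.546 by the same exact test). Across the 42 accessible promoters the SD was a median of 4.52% of the mean, from 0.19% at Col27a1 to 22.9% at Col6a6. The test compares these libraries and not conditions.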

How the data were processed

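Chromatin accessibility was measured by Omni-ATAC on live sorted cells, in 2 replicate libraries of 1 group. The authors deposited raw counts of read pairs over consensus intervals, made per the file headers with featureCounts 2.0.1, in which a pair counts in each interval that it overlaps by a fraction of at least 0.2. Alignment to mm10 with an nf-core pipeline and MACS peak calling are described in the study's methods. Intervals exist only where peaks passed the calling threshold, and 3 further columns, which belong to no sample here, also shaped the interval set and were not used. Fragments carried no molecular identifiers.

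Counts were divided by DESeq2 (1.42.0, R 4.3.3) size factors and by interval length in kb. A gene's TSS intervals overlap the 5′ end of any of its protein-coding transcripts in the GENCODE annotation of mm10, and their counts and lengths were summed. All intervals ended within the chromosomes of that assembly. Sequences were read from it, and 44 of 44 RefSeq promoter entries, for 40 members, were identical to it. Gene body intervals overlap the gene and no protein-coding TSS. Libraries were compared by a two-sided exact binomial test (scipy 1.17.1) per interval, with the expected share taken from the size factors and p-values adjusted by Benjamini-Hochberg (statsmodels 0.14.6) over 119502 intervals. The test was run on simulated counts drawn from the binomial model that it assumes. Spread between replicates beyond counting error was not simulated. No test over genes was made, since genes are not replicates. SDs are over 2 replicates.

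The rule for named genes took the laminins, the type IV pairs, collagens I, II, III, V, VI, IX, XI and XVIII, the 10 highest promoters, members without a TSS interval, the 10 densest gene body intervals, the 5 members with most of them and the interval with the largest replicate difference. An item within this rule is not reported here. Other genes named come from fixed lists or were picked with their values in view. The members and lists were chosen with earlier results of these data known. Alternatives covered edgeR (4.0.16) TMM factors, total counts, a mean of at least 10, the gene's 5′ end alone, intervals within 1 kb, counts per interval, the assignment to gene bodies and leaving out each replicate.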

Additional observations from a re-analysis of the deposited data

How the results depend on the processing

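No paired analysis was possible because the labels gave only 1 group. With edgeR TMM factors, total counts or a mean of at least 10, the medians and the ratio moved by less than the replicate SD, and the counts did not move, except that a mean of at least 10 left 363 of the 366 gene body intervals. Using the gene's 5′ end alone, the members' median promoter density was 189.8 and the ratio of TSS to gene body density 2.369. With intervals within 1 kb the members' values were 230.1 and 1.929, and the median promoter density of all protein-coding genes was 498.2. Per interval in place of per kb the members had 253.5 and 7.407, and a gene body median of 49.75 counts. The median promoter of all protein-coding genes then had 608 counts per interval. Leaving out a replicate, the median promoter density was 216 to 216.5, the gene body median 127.6 to 128.5 and the ratio 2.085 to 2.188. The members above the protein-coding median numbered 14 to 17 under the alternatives run, those with a TSS interval 38 to 47, and those with a denser gene body interval than promoter 21 to 31. This last set of alternatives was chosen after seeing the data. At an unadjusted p under 0.05, 34 intervals differed between the libraries. Of 39 genes tracked, 5 moved by over 1.5 times with the 5′ end alone (Col11a2, Col25a1, Col4a1, Col9a3, Lama2) and 3 with the 1 kb window (Col1a1, Col5a2, Col9a2). Intervals were present only where peaks had been called, so a density of 0 does not show closed chromatin, and 2 replicates give SDs of low precision.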
